A study of Caenorhabditis elegans with 7 samples.

Results

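Astacins are secreted zinc metalloproteases. They are made with a propeptide that holds the catalytic domain inactive until it is removed, and many carry further domains that bind other proteins. In *C. elegans* the family is large, and mutants of single members have defects in hatching, in the shedding of the old cuticle at each molt, in the processing of cuticle procollagens, or in the cuticular grinder of the pharynx. The name nas stands for nematode astacin, and a few members keep older names from their mutants or from their similarity to tolloid of the fly. The genes described here are those named nas followed by a number, together with *dpy-31*, *hch-1* and *toh-1*. By this rule 40 genes had a probe on the array, of 19859 genes in all. The reference annotation lists 39 of them as protein coding and *nas-40* as a pseudogene, and 115 probes of the array matched them.

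Expression was measured as Cy3 signal on 7 one-color Agilent worm arrays. Of these, 3 held RNA of N2 worms kept with 25 μM tomatidine, the steroidal alkaloid released from tomatine of unripe tomatoes, and 4 held RNA of N2 worms kept with the DMSO vehicle (1%). N2 is the wild-type laboratory strain, treatment began at L4, the last larval stage, and whole worms were collected on adult day 7. The methods describe vehicle-treated controls, which the source label calls untreated, and speak of a hybridization in which equal parts of the preparations were pooled, without naming its array. The arrays are taken as separate samples, so the p-values measure the spread between these arrays and make no allowance for pooled RNA. In RNA of whole worms, fewer cells of a type and less RNA per cell cannot be told apart.

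Tomatidine replicates 1, 2 and 3 had 57.1%, 67.0% and 68.5% of probes well above background, and vehicle replicates 1 to 4 had 53.0% to 69.7%. Negative control spots averaged a net signal of 237 on tomatidine replicate 1 and 424 on vehicle replicate 2, against 75.1 to 114 on the other 5 arrays. One slide held tomatidine replicate 1 and vehicle replicates 1, 2 and 3, and the other held tomatidine replicates 2 and 3 and vehicle replicate 4. All 9 oocyte and eggshell genes and all 4 adult hermaphrodite genes of the marker lists, the yolk protein gene *vit-2* among them, were well above background on all 7 arrays. Of the 12 embryo markers, 7 passed the filter on dim probes.

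About 2 in 3 of the astacin genes were measurable in these worms. To be tested, a gene needed a probe that rose well above background on 3 arrays or more, which held for 26 of 40 astacin genes (65%), against 71.6% of all genes with a probe. For 16 of 40 astacin genes (40%) a probe was well above background on all 7 arrays, against 58.8% of all genes. The 14 genes that were not tested were *nas-1*, *nas-2*, *nas-6*, *nas-10*, *nas-15*, *nas-16*, *nas-17*, *nas-18*, *nas-19*, *nas-22*, *nas-23*, *nas-24*, *nas-38* and *nas-40*, with 27 probes between them. Of these, 10 had no probe above background on any array. The remaining 4 had one on 1 or 2 arrays, namely *nas-24* on 1 tomatidine and 1 vehicle array, *nas-22* on 2 vehicle arrays, and *nas-1* and *nas-15* on 1 vehicle array each. Among the genes with no detected probe were *nas-6*, whose product acts with that of *nas-7* in shaping the pharyngeal grinder, and *nas-38*, whose mutants show altered sleep around the molt. A probe that is not above background gives only a bound, and says nothing on whether the transcript is absent.

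**Figure D1:**
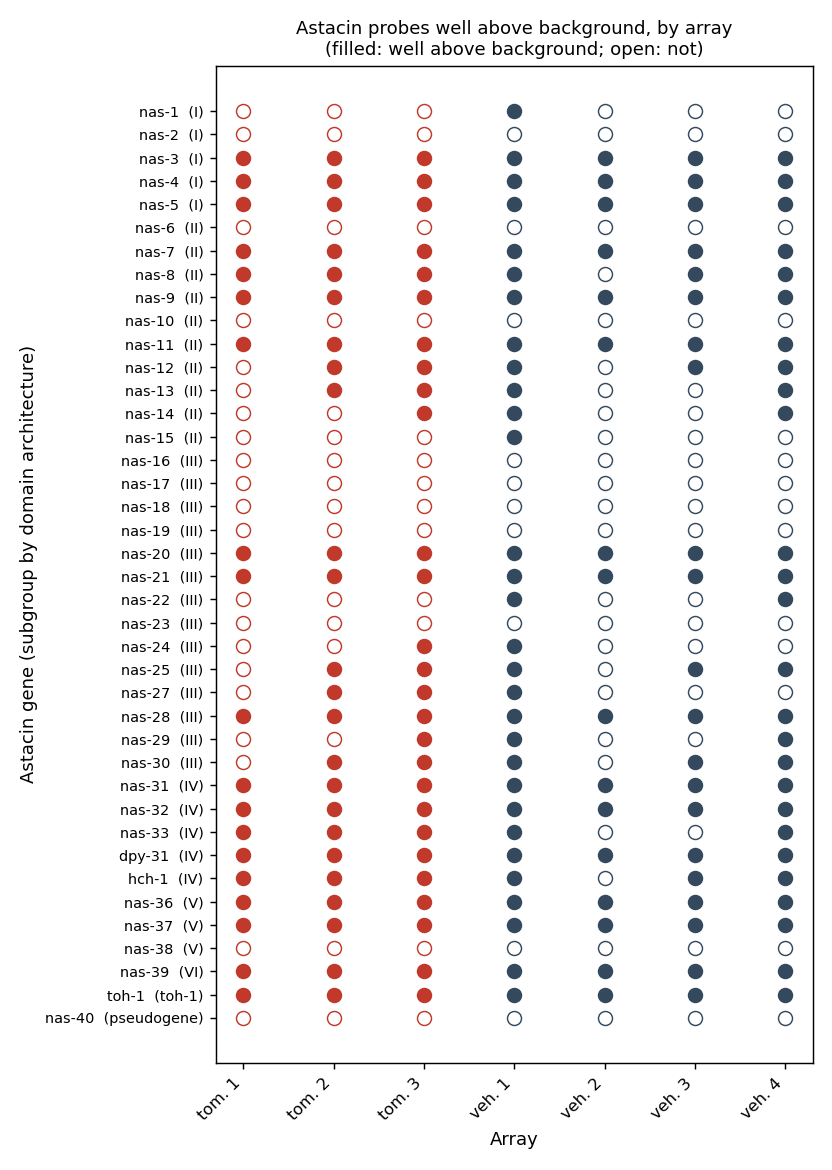
Detection of the 40 astacin genes on each array, with 3 tomatidine arrays in red and 4 vehicle arrays in blue along the x axis, and genes by subgroup down the y axis. A filled circle marks a probe well above background, shown for the probe of each gene detected on the most arrays. The filled rows are complete for 16 genes, and 10 rows are empty.

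The worm astacins are sorted by the domains that follow the catalytic one, from the minimal proteins of subgroup I, through the toxin-like ShK domains of subgroup II and the EGF-like and CUB domains of subgroup III, to the tolloid-like NAS-39 alone in subgroup VI. Tested genes numbered 3 of 5 in subgroup I, 7 of 10 in II, 7 of 14 in III, 5 of 5 in IV, 2 of 3 in V and 1 of 1 in VI, and *toh-1*, which was counted apart, was tested too. With *toh-1* counted in subgroup III, 8 of 15 of its genes were tested. In subgroup III the genes not detected on any array included a run of neighbors. In the order of protein-coding genes, *nas-18*, *nas-17* and *nas-19* follow each other and *nas-16* lies 1 gene away, and none of these 4 had a detected probe. The next astacin along that chromosome, after 13 other genes, starts a second run of *nas-20*, *nas-21* and *nas-22*. There *nas-20* and *nas-21* each had a probe detected on 7 of 7 arrays, while *nas-22* had none on more than 2. Probe sequences were not used here, and whether a probe also binds a neighboring astacin transcript was not tested.

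No astacin gene passed the test between tomatidine and vehicle. With limma's adjusted p held under 0.05, tomatidine-treated worms had 0 of 26 higher and 0 of 26 lower, where 0.0773% of the 14224 genes tested were higher and 0% were lower. Without adjustment, at the same threshold, the counts were also 0 and 0, against 0.752% of all genes higher and 0.471% lower. A t-test, which the methods name for comparing groups but not for the arrays, called 0 after Benjamini-Hochberg adjustment and 1, *nas-33*, before it. The smallest unadjusted p from limma among the 26 was 0.071. Of the 26 log2 fold changes, 10 lay above 0 (38.5%, against 45.3% of all genes) and 16 lay below. Their median was -0.08, against -0.03 over all genes tested, and they ran from -0.50 to 0.75.

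The size of change that these arrays could have shown was set by the spread between them. The 95% interval held 0 for all 26 genes, and it lay within 1 log2 unit of 0 for 14 of them. From the estimate to either end, the interval reached a median of 0.788 log2 units for the astacins and 0.559 for all genes tested. That reach was under 1 log2 unit for 22 astacins and 1 or more for 4, *nas-12*, *nas-14*, *nas-21* and *nas-29*. The residual SD had a median of 0.505 for the astacins and 0.338 for all genes.

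**Figure D2:**
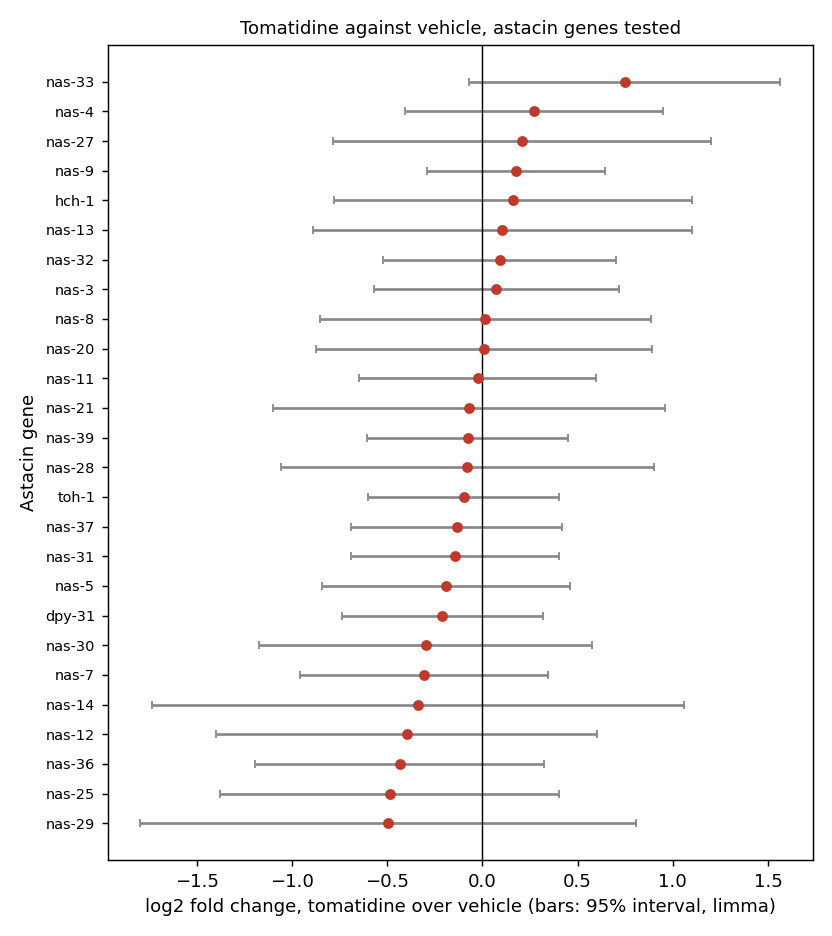
Log2 fold change of tomatidine over vehicle on the x axis for the 26 astacin genes tested, ordered by size down the y axis. Points are limma estimates and bars are 95% intervals, and every bar crosses 0, with *nas-33* at the top (0.75) and *nas-29* at the bottom (-0.50).

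The largest difference was that of *nas-33*, and it was the only astacin gene whose groups did not overlap. Its level, given for this and all genes below as log2 of the processed signal after scaling each array to a common mean and SD, was 6.30, 6.21 and 6.24 in tomatidine-treated worms and 5.83, 5.08, 5.16 and 5.94 in vehicle-treated worms. All 3 tomatidine arrays lay close together, and vehicle replicates 2 and 3 were the low ones. The log2 fold change was 0.75 (SE 0.38, 95% interval -0.07 to 1.57), with an adjusted p of 1 from limma. Groups without overlap in the higher direction were found for 0.816% of all genes, and in the lower direction for 1.27% of all genes and 0 astacins.

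The value of *nas-33* rested on a dim probe. It exceeded background clearly on 3 of 3 tomatidine arrays and 2 of 4 vehicle arrays, and the gene's other 2 probes did not pass the filter. The vehicle arrays where it did not were replicates 2 and 3, the low ones, so their values give only a bound. Before scaling, its processed signals overlapped, at 82.1, 62.0 and 64.9 with tomatidine and 73.1, 74.1, 22.7 and 47.8 with vehicle. These signals are not normalized between arrays, so the brightness of each array enters that overlap. The difference between the arrays that share a tag in the labels was 1.22, 1.05 and 0.30 log2 units. Within the first slide it was 0.94 and within the second 0.29. With the tags as a block the log2 fold change was 0.86 at an unadjusted p of 0.0174 (adjusted p = 0.988, limma). With the raw median signal of the spots, without background correction, it was 0.20.

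Among the other genes with positive values, *nas-4* had levels of 7.19, 7.24 and 7.01 with tomatidine, and 7.12, 6.27, 7.08 and 7.03 with vehicle. Vehicle replicate 2 was the one low array, and the other 6 overlapped, for a log2 fold change of 0.27 (SE 0.32), or 0.07 without vehicle replicate 2. The levels of *nas-27* were 5.05, 5.04 and 4.92 with tomatidine, and 5.06, 5.19, 3.97 and 4.96 with vehicle. Here vehicle replicate 3 was the one low array (log2 fold change 0.21, SE 0.46). Leaving out vehicle replicate 3 turned that value to -0.07. The probe of *nas-27* was detected on 2 of 3 tomatidine and 1 of 4 vehicle arrays. The probe of *nas-9*, detected on all 7 arrays, gave 12.40, 11.86 and 12.36 with tomatidine, against 11.87, 12.14, 11.69 and 12.42 with vehicle. The groups overlapped over nearly the whole range, with a log2 fold change of 0.18 (SE 0.22). Leaving out single arrays gave 0.06 without vehicle replicate 3 to 0.35 without tomatidine replicate 2.

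*hch-1* encodes the hatching enzyme, with which the embryo leaves its eggshell. Its level was 6.53, 6.27 and 7.04 in tomatidine-treated worms, and 7.13, 5.57, 5.91 and 7.22 in vehicle-treated worms. The vehicle arrays spanned a wider range than the tomatidine arrays and enclosed all of them, and the log2 fold change was 0.16 (SE 0.44). The value was -0.14 without vehicle replicate 2, -0.02 without vehicle replicate 3 and -0.05 without tomatidine replicate 3. The embryo markers had a median log2 fold change of -0.07 over 7 genes tested of 12. Their mean level ran from 8.79 to 9.04 on the tomatidine arrays and from 8.56 to 9.12 on the vehicle arrays.

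**Figure D3:**
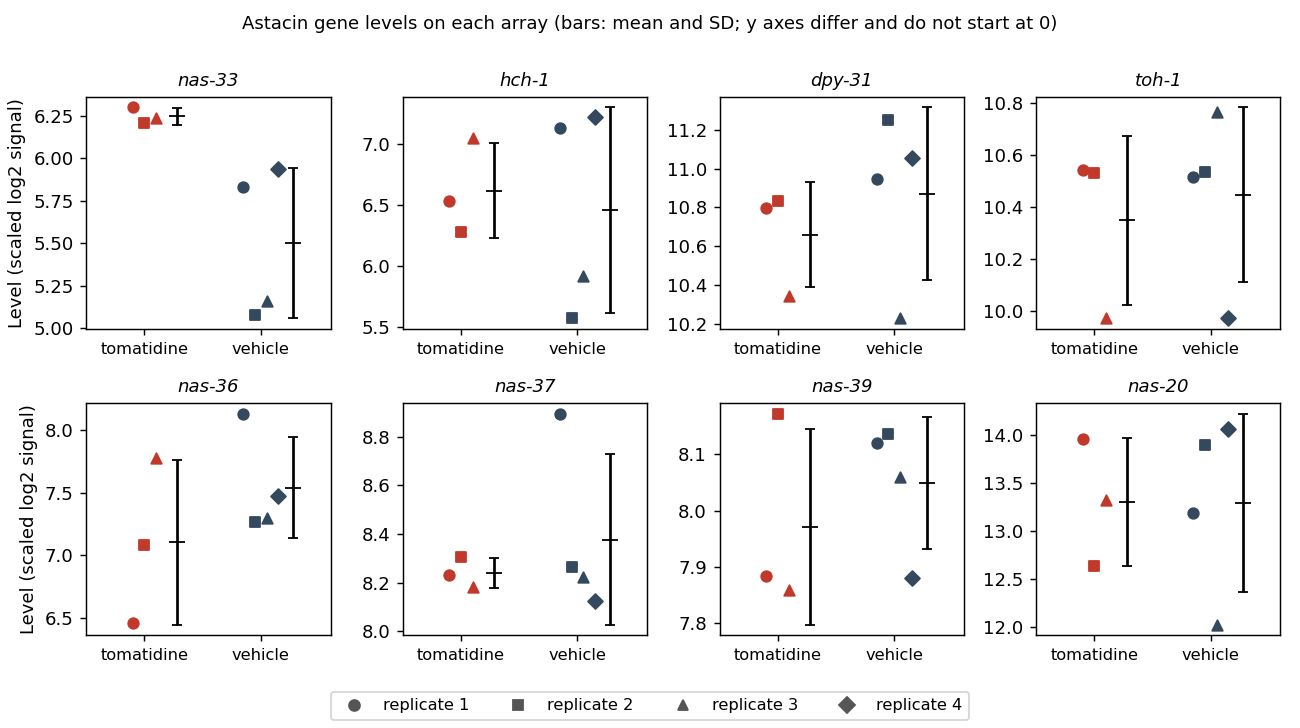
Level of 8 astacin genes on each array, as scaled log2 signal on the y axis, with 3 tomatidine arrays in red to the left and 4 vehicle arrays in blue to the right of each panel. Marker shape gives the replicate number and the bars give mean and SD; the groups overlap in every panel but that of *nas-33*.

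*dpy-31* encodes the procollagen C-proteinase that trims the cuticle collagens SQT-3 and DPY-17. Its single probe was detected on all 7 arrays, with levels of 10.80, 10.83 and 10.35 in tomatidine-treated worms, and 10.95, 11.25, 10.23 and 11.05 in vehicle-treated worms. Tomatidine replicate 3 and vehicle replicate 3 were low, and the groups overlapped. Tomatidine over vehicle gave a log2 fold change of -0.21 (SE 0.25, 95% interval -0.74 to 0.32). It was -0.42 without vehicle replicate 3, -0.08 without vehicle replicate 2 and -0.05 without tomatidine replicate 3. Its collagen substrates gave values on both sides of 0, with log2 fold changes of 0.20 (SE 0.38) for *sqt-3* and -0.10 (SE 0.20) for *dpy-17*. A further list held genes for procollagen processing and cuticle cross-linking, such as the furin-like protease gene *bli-4* and the prolyl hydroxylase gene *dpy-18*. Of these, 9 of 9 were tested, 0 passed in either direction, and the median log2 fold change was -0.06. One of them, *mlt-7*, is also in the molting list below.

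*toh-1* was named for its homology to tolloid. Of its 7 probes 3 were kept, and 2 of these were detected on all 7 arrays. The chosen probe gave 10.55, 10.53 and 9.97 with tomatidine, against 10.52, 10.53, 10.77 and 9.98 with vehicle. Tomatidine replicate 3 and vehicle replicate 4, which share a label tag and a slide, were both low, and the other 5 arrays lay together. The log2 fold change was -0.10 (SE 0.23), and it was 0.09 without tomatidine replicate 3 and 0.01 without vehicle replicate 3.

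NAS-36 and NAS-37 act at the molt, where they help to free the animal from its old cuticle. Adults no longer molt, yet both probes were detected on all 7 arrays of whole adult worms. In the same RNA 7 of 12 embryo markers passed the filter on dim probes and the rest did not. Which cells or stages gave the *nas-36* and *nas-37* signal was not tested. The level of *nas-36* was 6.46, 7.08 and 7.77 with tomatidine, and 8.13, 7.26, 7.30 and 7.47 with vehicle. Tomatidine replicate 1 was the lowest array and vehicle replicate 1 the highest. The log2 fold change was -0.44 (SE 0.35, 95% interval -1.19 to 0.32), and without tomatidine replicate 1 it was -0.11. The difference was -1.10 within the first slide, which held tomatidine replicate 1, and -0.05 within the second. For *nas-37* the levels were 8.23, 8.31 and 8.18 with tomatidine, against 8.90, 8.27, 8.22 and 8.12 with vehicle. Here 6 arrays lay within a narrow band and vehicle replicate 1 stood above them. This gave a log2 fold change of -0.14 (SE 0.26), and without vehicle replicate 1 it was 0.04.

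Of 22 other genes of molting and of the apical matrix, 21 were tested and 0 passed in either direction. Their median log2 fold change was 0.15. The largest values in the list were -0.35 (SE 0.27) for *nhr-23*, a nuclear receptor that drives molting, 0.33 (SE 0.44) for *mlt-8* and 0.31 (SE 0.38) for *mlt-11*, which encodes a protease inhibitor needed for molting.

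*nas-39* encodes the astacin with the most tolloid-like set of domains. It had the smallest residual SD of the 26, at 0.142. Its levels were 7.88, 8.17 and 7.86 in tomatidine-treated worms, and 8.12, 8.14, 8.06 and 7.88 in vehicle-treated worms. The range of the tomatidine arrays enclosed that of the vehicle arrays, and the log2 fold change was -0.08 (SE 0.25, 95% interval -0.61 to 0.45). In flies and vertebrates tolloid proteases release BMP ligands from their inhibitors. Of 21 genes of the BMP and TGF-beta pathways, 20 were tested, all 20 were detected on 7 arrays, and 0 passed in either direction, with a median log2 fold change of -0.10. The largest values were those of *sma-3*, *daf-8* and *unc-40*. The Smad gene *sma-3* had levels of 9.43, 9.51 and 9.57 with tomatidine and of 9.77, 9.92 and 9.89 on vehicle replicates 1 to 3, with replicate 4 slightly above these. It was the one gene of the 20 whose groups did not overlap, with a log2 fold change of -0.39 (SE 0.19, unadjusted p = 0.0634 and adjusted p = 1, limma). Over all genes tested, 1.27% did not overlap in the lower direction and 0.816% in the higher. For *daf-8*, a Smad gene of the dauer pathway, the log2 fold change was -0.31 (SE 0.33), and for the netrin receptor gene *unc-40* it was -0.30 (SE 0.22).

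*nas-7* had levels of 6.64, 6.60 and 6.89 with tomatidine, and 7.38, 6.87, 6.80 and 7.01 with vehicle. The groups overlapped, and vehicle replicate 1 was the highest. The log2 fold change was -0.31 (SE 0.30), and the difference was below 0 in all 3 tag pairs, at -0.23, -0.20 and -0.12. The 2 other kept probes of the gene gave 0.03 (SE 0.48) and 0.39 (SE 0.63), however, so that the sign depended on the probe. Each of these 2 was detected on 4 arrays, and the chosen probe on all 7. Pharynx markers had a median log2 fold change of 0.08 over 8 genes tested of 12. Their mean level was 9.45 to 9.65 on the tomatidine arrays and 9.26 to 9.57 on the vehicle arrays.

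*nas-29*, *nas-14*, *nas-25* and *nas-12* had values below 0 and dim probes, and tomatidine replicate 1 was the lowest array for each. *nas-29* had levels of 2.98, 4.55 and 5.50 with tomatidine, and 5.73, 4.54, 4.44 and 4.67 with vehicle, with a probe detected on 1 of 3 tomatidine and 2 of 4 vehicle arrays, as was that of *nas-14*. The log2 fold change was -0.50 (SE 0.61), and without tomatidine replicate 1 it was 0.18. For *nas-14* the levels were 3.15, 4.58 and 5.11 with tomatidine, and 5.36, 3.46, 4.02 and 5.63 with vehicle. Its log2 fold change of -0.34 (SE 0.65) also changed sign without that array, to 0.23, and its residual SD was the largest of the 26, at 1.03. Both genes thus spread over more than 2 log2 units between arrays.

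*nas-25* and *nas-12* were detected on 2 of 3 tomatidine and 3 of 4 vehicle arrays. The level of *nas-25* was 4.99, 5.91 and 6.01 with tomatidine, against 6.67, 5.49, 6.09 and 6.25 with vehicle. Its log2 fold change was -0.49 (SE 0.42), or -0.17 without tomatidine replicate 1. The level of *nas-12* was 4.70, 5.16 and 6.10 with tomatidine, against 6.33, 4.94, 5.70 and 5.90 with vehicle. Its log2 fold change was -0.40 (SE 0.47), or -0.09 without that array. In both genes the arrays of the groups interleaved.

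Astacin levels varied between the arrays of each group. For each array, the deviation of the 26 genes from their vehicle means had a median of -0.18, -0.12 and 0.19 on tomatidine replicates 1, 2 and 3, and of 0.35, -0.13, -0.33 and 0.16 on vehicle replicates 1 to 4. Both groups thus held arrays where the astacins were mostly above and arrays where they were mostly below. The same medians over all genes lay between -0.07 and 0.11. Tomatidine replicate 1 was the lowest array for 8 of the 26 genes (30.8%, against 18.8% of all genes) and vehicle replicate 3 for 9 (34.6%, against 17.1%). Vehicle replicate 1 was the highest for 9 (34.6%, against 14.1%) and vehicle replicate 4 for 7 (26.9%, against 17%). By the probe that stands for each gene, the number of the 26 genes well above background was 19, 24 and 26 on the tomatidine arrays, and 26, 15, 20 and 25 on the vehicle arrays. The share of all probes above background was lowest on the same arrays, vehicle replicate 2, tomatidine replicate 1 and vehicle replicate 3, and its part in these values was not tested.

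**Figure D4:**
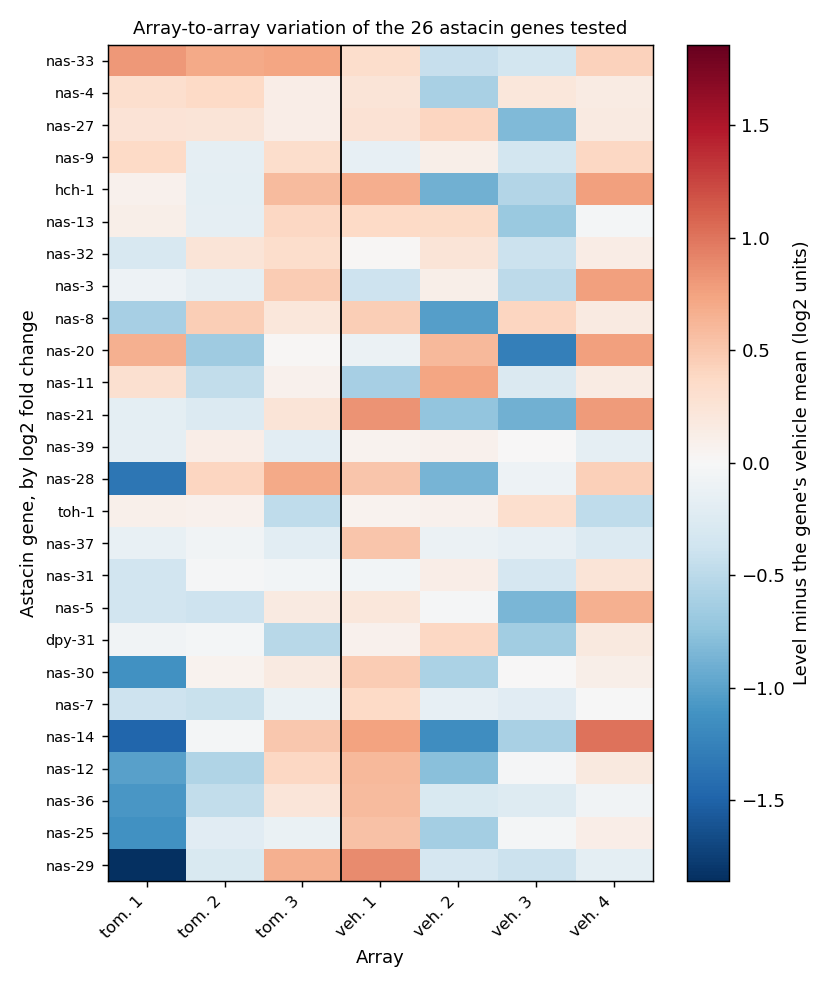
Level of each of the 26 astacin genes minus its mean over the vehicle arrays, in log2 units, as color from blue (below) to red (above). Columns are 3 tomatidine arrays, left of the line, and 4 vehicle arrays, and rows are genes ordered by log2 fold change; vehicle replicate 1 is mostly red and vehicle replicate 3 mostly blue.

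In the 3 pairs of arrays that share a tag, the difference was above 0 each time for 2 genes, *nas-33* and *nas-8*, and below 0 each time for 3 genes, *nas-7*, *nas-11* and *nas-25*, with 21 mixed. On the slides, 4 genes were higher on both (*nas-33*, *nas-4*, *nas-27* and *nas-13*), 8 were lower on both and 14 differed in sign. *nas-20*, detected on all 7 arrays, showed the size of these differences. Its levels were 13.96, 12.63 and 13.32 with tomatidine, and 13.19, 13.89, 12.03 and 14.06 with vehicle. The difference was 0.92 within the first slide and -1.09 within the second, while its log2 fold change over all arrays was 0.01 (SE 0.41).

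Where a gene had several probes, these showed how far its value depended on the probe. They were read on the same 7 arrays, so their spread does not measure that between samples. In all, 62 probes of the 26 genes were kept, 0 of them were saturated, and 0 had an unadjusted p under 0.05. For 11 genes more than 1 probe was kept. In 2 of these, *nas-28* and *nas-32*, every probe had the same sign, and in 9 the probes lay on both sides of 0. All 6 probes of *nas-3* were detected on all 7 arrays, with log2 fold changes from -0.28 to 0.07, and the 4 probes of *nas-20*, also detected on all 7, ran from -0.09 to 0.23. The widest spread was that of *nas-25*, from -0.997 to 0.295 over 5 probes, each detected on 3 to 5 arrays. The 4 kept probes of *nas-32* all lay above 0, from 0.09 (SE 0.29), detected on all 7 arrays, to 0.65 (SE 0.58), detected on 3.

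**Figure D5:**
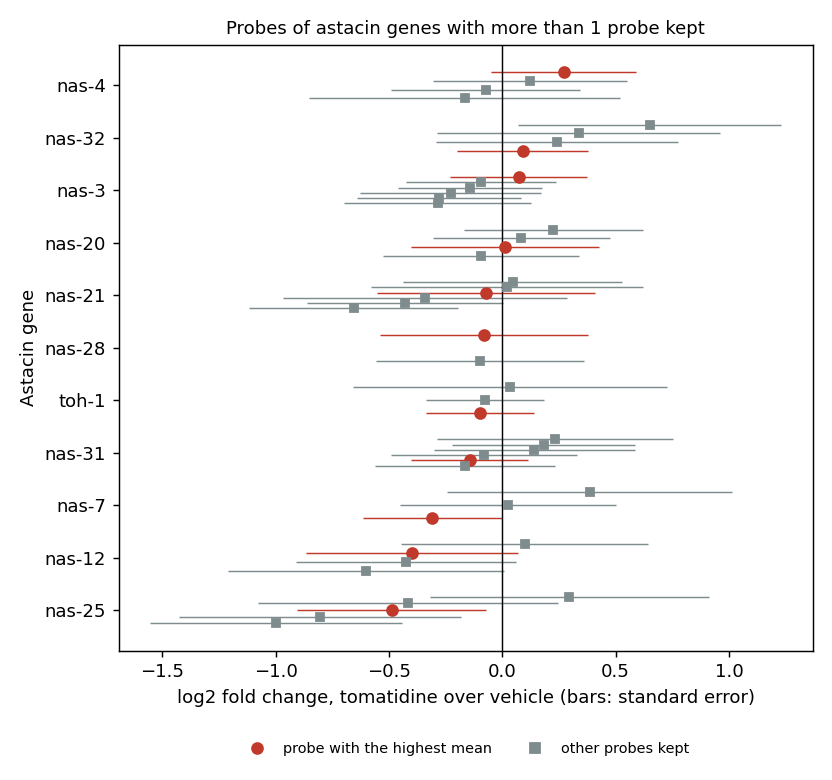
Log2 fold change of tomatidine over vehicle on the x axis for every kept probe of the 11 astacin genes with more than 1, genes down the y axis. Bars are standard errors from limma, the red circle is the probe that stands for the gene, and 9 of 11 genes have probes on both sides of 0.

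By subgroup, the medians of I to IV lay close to 0. The median log2 fold change was 0.07 over 3 genes of subgroup I, -0.03 over 7 of II, -0.08 over 7 of III (-0.09 over 8 with *toh-1*) and 0.09 over 5 of IV. Both tested genes of subgroup V, *nas-36* and *nas-37*, had values below 0, with a median further from 0, at -0.29. Without tomatidine replicate 1 *nas-36* was at -0.11, and without vehicle replicate 1 *nas-37* was at 0.04. Subgroup VI held *nas-39* alone, at -0.08.

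The methods select genes by a z-ratio, in which the mean z-score with vehicle is subtracted from that with tomatidine and the result is divided by the SD of all such differences, with a limit of 1.5 either way, at a false discovery rate whose test they do not name. By the limit alone, which carries no replicate error of its own, *nas-33* was higher (1 of 26, against 5.29% of all genes), and *nas-29*, *nas-25* and *nas-36* were lower (3 of 26, against 3.68%). The z-ratios were 2.78 for *nas-33*, -1.85 for *nas-29*, -1.81 for *nas-25* and -1.62 for *nas-36*. The last 3 are genes for which tomatidine replicate 1 was the lowest array, and none of these 4 passed limma.

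Of 42 genes for other extracellular metalloproteases and their inhibitors, such as matrix metalloproteases, ADAMTS proteases and neprilysins, 27 were tested and 0 passed in either direction, with a median log2 fold change of -0.0043. The largest were -0.39 (SE 0.45) for *nep-16* and 0.39 (SE 0.21) for *nep-17*, both neprilysin genes, and 0.38 (SE 0.44) for the ADAMTS gene *adt-1*. Of 19 cuticle collagens with visible mutants, 16 were tested, 0 passed, and the median was 0.38. The largest was *rol-6*, with levels of 5.67, 7.11 and 8.61 in tomatidine-treated worms and 7.19, 3.46, 3.86 and 6.97 in vehicle-treated worms. Vehicle replicates 2 and 3 were low and the other 5 arrays overlapped, for a log2 fold change of 1.76 (SE 0.87, adjusted p = 1, limma). It was followed by *sqt-1* at 1.35 (SE 0.71) and *rol-8* at 0.96 (SE 0.56). All of these rested on dim probes. Those of *rol-6* and *sqt-1* were detected on 3 of 3 tomatidine and 2 of 4 vehicle arrays. The probe of *rol-8* was detected on 2 of 3 tomatidine and 2 of 4 vehicle arrays. Markers of the hypodermis, the tissue that makes the cuticle, had a median of 0.05 over 6 genes tested of 9, and *rol-6* is among these. Their mean level ran from 9.61 to 10.35 on the tomatidine arrays and from 9.09 to 10.07 on the vehicle arrays, lowest on vehicle replicates 2 and 3. This mean includes *rol-6*, at 3.46 and 3.86 on those arrays. On vehicle replicate 3, *col-19*, *lin-26*, *elt-3* and *che-14* were not below their lowest tomatidine array, and *wrt-10*, at 7.51, was. On vehicle replicate 2, *lin-26*, at 12.97, and *wrt-10*, at 6.71, were below it, and *col-19*, *elt-3* and *che-14* were not. Intestine markers had a median of 0.18 over 9 genes, with mean levels of 12.63 to 12.79 on the tomatidine arrays and 12.22 to 12.81 on the vehicle arrays. The part of cell makeup in the astacin values was not tested.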

How the data were processed

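RNA of 3 tomatidine and 4 vehicle samples was measured on 1 array each. The authors deposited scanner files from Feature Extraction 11.5.1.1, whose processed signal is a background-subtracted intensity, not normalized between arrays; raw median signals served for 2 alternatives. Their deposited value table is a score, z-scores of log signal (r = 0.999996 with each array's log2 signal, column medians -0.29 to -0.12). Of 45220 spots, 1417 were controls and were dropped, as were outlier spots. Of 43603 probes, 34544 matched 1 gene, 9059 matched none and were not used, and 86 lacked a usable spot on some array. Log2 signals were z-scored per array and rescaled to the arrays' mean and SD. Probes detected on at least 3 arrays were kept, and each gene took its kept probe of highest mean. In limma 3.58.1 under R 4.3.3, 14224 genes were compared (eBayes with trend, two-sided, Benjamini-Hochberg, threshold 0.05, 5 residual degrees of freedom). The number of arrays limits the precision. The code was tested on simulated data, and the closing section gives the alternatives tried.

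The members and lists were chosen with earlier results of these data known. Named genes are those whose groups do not overlap, the 5 largest values each way and those with a known mutant role, and in lists up to 3 with the largest change; *nas-20*, *nas-3*, *nas-32*, the collagens that DPY-31 trims, and the genes named within batches or for their probes were chosen after their values were seen. Names and gene order came from a RefSeq table of another build than the arrays' (ce6), so no coordinates are given.

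Label tags form 3 pairs of arrays and leave out vehicle replicate 1. Across genes, which are not independent replicates, residuals of paired arrays correlated at 0.61, 0.19 and 0.51 by tag and at -0.53, -0.45 and -0.33 by title number. Tomatidine replicates 2 and 3 each also correlated at 0.35 with vehicle replicate 1, whose tag matched neither, above the tag pair at 0.19. As each tag pair exceeded 0.1, the tags were taken as the pairing for a block in an alternative, and the values reported use no block. This limit was applied to these same data, and tomatidine replicate 1 with vehicle replicate 3, which share no tag, also passed it at 0.12. The tag pairs at 0.61 and 0.51 each lay on 1 slide and the pair at 0.19 did not, so the correlations cannot tell tag from slide. What the tags mean is not given in the sources used here.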

Additional observations from a re-analysis of the deposited data

Results flagged for a closer look

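The level of *nas-4* in vehicle-treated worms held 1 array far from the others. Vehicle replicate 2 was at 6.27 and the other vehicle arrays were at 7.03 to 7.12, a gap of 0.886 of the group's range, above Dixon's 95% critical value for 4 samples. Of 26 vehicle groups examined this was the 1 past the limit, where chance gives about 1 in 20. Vehicle replicate 2 also had the highest negative controls, and their part was not tested.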

How the results depend on the processing

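The count of astacin genes past the adjusted threshold was 0 in each direction under every alternative run with limma and under the t-test. The methods' z-ratio called 1 in the higher direction and 3 in the lower. At an unadjusted p under 0.05, none was lower under any alternative and 1 was higher under 5 beside leaving out arrays. That gene was *nas-33* with the 75th percentile shift, with limma without trend and with the label tags as a replicate block (log2 fold change 0.86, adjusted p = 0.988, limma). It was *nas-33* also with the t-test. Without the filter on dim probes it was *nas-18*, which had no probe above background on any array. Leaving out each array gave 0 to 1, the 1 being *nas-33* without vehicle replicate 4. The adjusted p of the named genes was at least 0.988 under every alternative, and *nas-33* kept its sign in all 20 fits, from 0.20 to 0.89.

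The median log2 fold change, -0.08, ran from -0.17 to 0.03 when single arrays were left out, above 0 in 2 of 7 fits, and was -0.21 with the slide as a block and 0.03 with title numbers as a replicate block. Of 188 values of named genes under 13 alternatives, 179 kept their sign. The 9 that did not were *hch-1* (-0.089 with the slide as a block, and -0.094 without the arrays with the highest negative controls, tomatidine replicate 1 and vehicle replicate 2, an alternative chosen after seeing the data), *nas-29* (0.081 without those arrays and 0.51 without the filter, which chose another probe), *toh-1* (0.098, slide as a block), *nas-37* (0.037, replicate block by tags), *nas-7* (0.035, mean over probes), *nas-27* (-0.036, raw signal) and *nas-12* (7.46e-04, normexp and quantile). Leaving out single arrays gave -0.14 to 0.41 for *hch-1*, -0.75 to 0.23 for *nas-14*, -0.067 to 0.34 for *nas-27*, -1.07 to 0.18 for *nas-29*, -0.22 to 0.037 for *nas-37* and -0.26 to 0.089 for *toh-1*, each with a change of sign. Without a change of sign, the ranges were 0.61 to 0.89 for *nas-33*, 0.07 to 0.35 for *nas-4*, 0.06 to 0.35 for *nas-9*, -0.42 to -0.05 for *dpy-31*, -0.40 to -0.19 for *nas-7*, -0.77 to -0.11 for *nas-36*, -0.79 to -0.09 for *nas-12*, -0.70 to -0.17 for *nas-25* and -0.18 to -0.02 for *nas-39*. The replicate block by tags changed no other call. Apart from the sizes just given, the cause of these changes was not tested.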
